A study of Homo sapiens with 6 samples.

Results

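Kinesins are motors that burn ATP to walk along microtubules or to take their ends apart. Some build and pull apart the spindle and are made mainly by cells that approach division, while others carry vesicles, endosomes and mitochondria in cells of any stage. The rows of the deposited count table whose symbols begin with KIF or KIFC and a digit were taken, 43 of 23827 rows in all, and each was assigned a role from textbook knowledge. Earlier results of these data were known when the roles were assigned. The roles were mitosis (14 genes), interphase transport (17), cilium or centriole (6) and a dual or other role (5). The last row, KIF1BP, is a kinesin-binding protein and not a motor.

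Polyadenylated RNA was sequenced from A549, an established human lung adenocarcinoma line, after 24 h with 20 mM lactic acid in the medium (lactic acid group, 3 libraries) or after 24 h with an equal volume of phosphate-buffered saline (PBS group, 3 libraries). The labels call the libraries biological replicates and do not say which cultures they came from, so p-values measure the spread between these libraries. The acid and the lactate ion were given together and cannot be told apart in this design. Libraries held 33492831 to 42938870 counts, of which kinesin rows took 0.211% to 0.215% in the lactic acid group and 0.25% to 0.255% in the PBS group. The epithelial keratins KRT8 and KRT18 were abundant, at 1814 and 916 CPM after lactic acid and 1874 and 1054 CPM in PBS. EPCAM and CDH1, which are also epithelial, were low, at 1.62 and 11.8 CPM after lactic acid and 3.29 and 20.1 CPM in PBS. KRT19, a further keratin, had 71.0 CPM after lactic acid and 62.5 CPM in PBS, and the lung marker NAPSA had 1.78 CPM after lactic acid and 1.10 CPM in PBS. In the edgeR test described below, KRT18, EPCAM and CDH1 fell (log2 fold changes −0.20, −1.01 and −0.77) and KRT19 rose (0.18). KRT8 and NAPSA were not called. The leukocyte marker CD3E was at 0 in every library, and PTPRC, PECAM1, VWF, COL1A2 and PDGFRB reached at most 0.309 CPM. CPM here means counts scaled to library size with TMM factors, which correct for library composition.

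The mitotic motors fell together after lactic acid, and most transport motors did not pass the test in either direction. Of the 14 mitotic genes, 13 passed the filter on low counts and 12 fell at an adjusted p under 0.05 (edgeR quasi-likelihood test, adjusted over all 15474 genes tested), against 16.7% of all tested genes that fell. None rose, against 18.7% of all tested genes, and none reached an unadjusted p under 0.05 in that direction (0 with DESeq2 and 0 with limma-voom). Over all 40 tested kinesin rows 1 rose and 16 fell, where 35.4% of all tested genes were called in either direction. The 12 transcripts were 19% to 34.3% lower in lactic acid, and each had at least 794 counts in every library. The median log2 fold change of the 13 tested mitotic genes was −0.48, against 0.0024 for all tested genes, whose 5th percentile was −0.57. Of the 17 transport genes, all tested, 1 rose and 3 fell, with a median log2 fold change of 0.017. In these bulk libraries, fewer cells near division and less of each transcript per cell cannot be told apart.

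**Figure D1:**
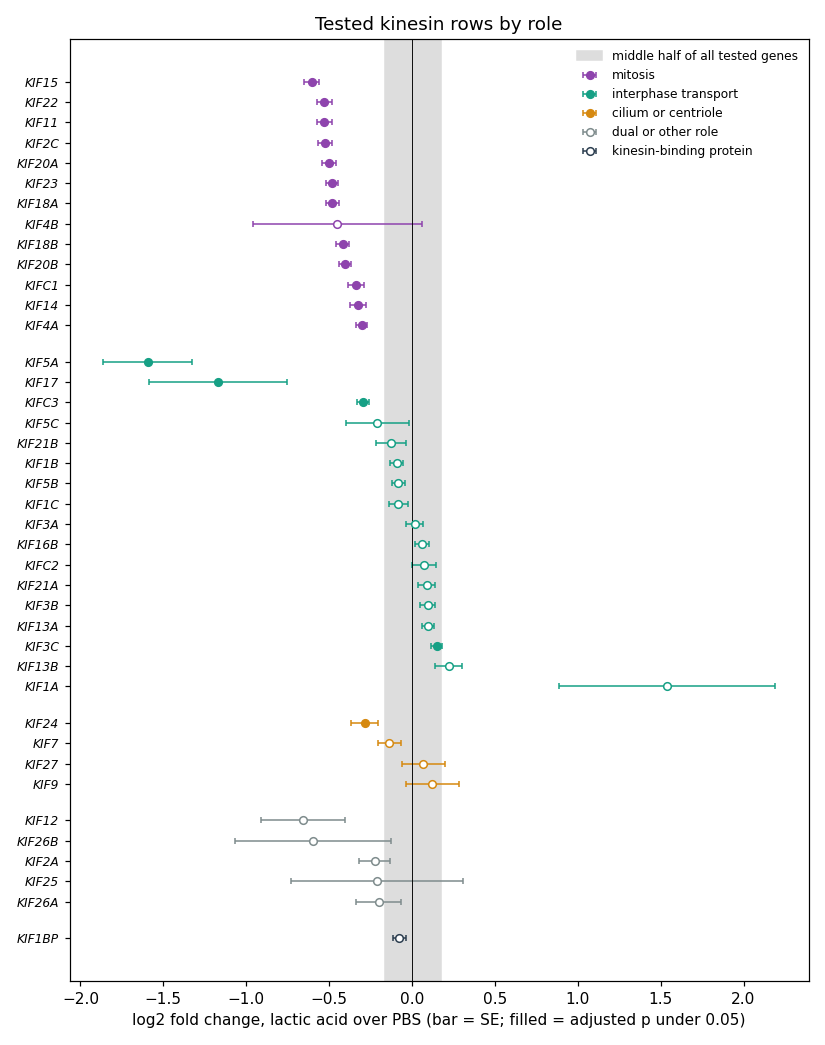
Log2 fold change (lactic acid over PBS) of the 40 tested kinesin rows, grouped by role; bars are SE, filled points passed an adjusted p under 0.05, and the grey band is the interquartile range of all 15474 tested genes. The mitotic points lie between −0.61 and −0.30, all left of the band, while most transport points lie within it.

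Promoters of mitotic genes are known for a shared layout, in which CCAAT boxes, bound by NF-Y, stand upstream of a cell cycle homology region (CHR, core TTTGAA or TTTAAA) that recruits the DREAM and MuvB complexes, repressors in resting cells and activators before mitosis. The sequences below are shown because the 12 mitotic motors moved together. They are from RefSeq (GRCh38.p14), run from 90 bases before to 10 after the annotated start and are on the strand of the gene. Capitals mark a CCAAT box or a CHR core on either strand, and a CCAAT box on the other strand reads ATTGG. The first 5 are mitotic motors, all chosen with a CHR core in view, and the last 2 are transport motors. KIF5B also holds TTTGAA, farther upstream than the stretch shown (at −140), and was the only motor outside the mitotic role with TTTGAA.
KIF11, chr10:92593040-92593139, plus strand: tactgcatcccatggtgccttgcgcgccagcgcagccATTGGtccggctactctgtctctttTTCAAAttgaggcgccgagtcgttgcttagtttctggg
KIF4A, chrX:70290014-70290113, plus strand: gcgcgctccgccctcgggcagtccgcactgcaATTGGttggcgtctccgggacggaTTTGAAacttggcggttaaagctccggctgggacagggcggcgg
KIF14, chr1:200620742-200620841, minus strand: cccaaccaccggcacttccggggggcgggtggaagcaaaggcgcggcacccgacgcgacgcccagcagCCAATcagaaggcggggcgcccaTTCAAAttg
KIF18B, chr17:44947764-44947863, minus strand: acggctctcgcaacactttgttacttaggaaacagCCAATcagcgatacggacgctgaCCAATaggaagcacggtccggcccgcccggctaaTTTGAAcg
KIF2C, chr1:44739747-44739846, plus strand: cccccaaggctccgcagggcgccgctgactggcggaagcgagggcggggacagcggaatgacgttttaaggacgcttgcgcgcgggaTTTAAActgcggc
KIF5B, chr10:32056416-32056515, minus strand: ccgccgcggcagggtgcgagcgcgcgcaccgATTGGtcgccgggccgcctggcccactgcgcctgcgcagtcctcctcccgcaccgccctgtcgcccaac
KIF3B, chr20:32277561-32277660, plus strand: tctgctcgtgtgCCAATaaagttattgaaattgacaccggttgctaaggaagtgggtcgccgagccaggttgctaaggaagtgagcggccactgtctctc

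All 14 mitotic genes had an entry in the RefSeq promoter table, with 15 promoters, and 20 motors of the other roles had 28 promoters. Coverage of those roles was incomplete, with 12 of 17 transport, 4 of 6 cilium or centriole and 4 of 5 dual or other motors. In the window of 250 bases before to 50 after the start, TTTGAA or TTTAAA on either strand stood in 12 of the 15 mitotic promoters (80%), in 2 of the 28 other motor promoters (7.14%) and in 24.0% of all 35116 promoters of the table. Within the 250 bases before the start alone the shares were 46.7%, 7.14% and 21.9%, because in several genes the CHR core lies just after the start. CCAAT stood in 11 of the 15 mitotic promoters (73.3%), in 9 of the 28 others (32.1%) and in 34.6% of all promoters over the whole window. GGCGGGA, part of E2F-type sites, stood in 26.7% of mitotic promoters, in 14.3% of the others and in 15.4% of all promoters. Both strands were searched, and matches of different motifs were allowed to overlap.

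In 10 mitotic promoters both boxes were found, and the distance from a CCAAT box to the nearest CHR core after it varied. It was 9 bases in KIF23, 23 in KIF14, 24 in KIF4A and in KIF4B, 25 in KIF11, 26 in KIF20A, 34 in KIF18B, 35 in KIF18A, 50 in KIFC1 and 122 in KIF20B. KIF4B is a nearly identical copy of KIF4A, so their promoters are not independent, though each is counted here and in the shares above. KIF15 and KIF2C held a CHR core without a CCAAT box, and KIF22 held a CCAAT box without a CHR core. KIF2B, which had no counts, held none of the searched motifs. These matches describe letters near annotated starts, and no binding was measured. Any link between the motifs and the fall of the transcripts was not tested.

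Motors that set up the spindle fell. KIF11 (ENSG00000138160, chromosome 10, 92593286 to 92655395, GRCh38), also called Eg5, pushes the spindle poles apart by sliding antiparallel microtubules. It stood at 97.9, 99.8 and 106 CPM in the lactic acid libraries, against 152, 142 and 144 CPM in the PBS libraries, with no overlap between groups. That is 30.7% lower (log2 fold change −0.53, SE 0.0432, adjusted p = 3.26e-06). KIF15 (chromosome 3, 44761717 to 44873376) can keep spindles bipolar when KIF11 is blocked, and it fell the most among the 12, by 34.3%. Its values were 22.3, 22.97 and 23.6 CPM after lactic acid and 35.02, 34.9 and 34.8 CPM in PBS (log2 fold change −0.61, SE 0.0461, adjusted p = 2e-06). TMEM42 lies within KIF15 on the same strand and was not called (log2 fold change 0.014, adjusted p = 0.941). KIFC1 (chromosome 6, 33391536 to 33409924), the minus-end motor that gathers spindle poles and clusters extra centrosomes in cancer cells, stood at 42.2, 43.004 and 46.8 CPM after lactic acid and 54.4, 54.1 and 58.2 CPM in PBS. It fell by less, 20.9% (log2 fold change −0.34, SE 0.048, adjusted p = 0.000222).

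Motors that act on chromosomes and on microtubule ends fell as well. KIF22 (chromosome 16, 29790719 to 29805385), or Kid, pushes chromosome arms toward the spindle equator. It had 55.6, 54.2 and 56.7 CPM in lactic acid libraries and 75.1, 81.8 and 83.2 CPM in PBS libraries, 30.7% lower (log2 fold change −0.53, adjusted p = 3.55e-06). KIF4A (chromosome X, 70290090 to 70420832), a chromokinesin that also works in the central spindle with PRC1, had 77.99, 79.3 and 81.02 CPM after lactic acid and 98.6, 96.002 and 99.5 CPM in PBS. Its fall of 19% was the smallest of the 12 (log2 fold change −0.30, SE 0.0351, adjusted p = 4.82e-05), and it still left a gap between the groups wider than the spread within either. PDZD11 overlaps KIF4A on the other strand and was not called (log2 fold change −0.11, adjusted p = 0.15).

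KIF2C (chromosome 1, 44739818 to 44767767), or MCAK, shortens microtubules at centromeres and helps correct faulty attachments. It stood at 45.1, 44.6 and 42.05 CPM after lactic acid and 65.4, 63.5 and 60.4 CPM in PBS, 30.4% lower (log2 fold change −0.52, adjusted p = 3.35e-06). The kinesin-8 motors KIF18A and KIF18B, which limit microtubule length, gave similar values. KIF18A (chromosome 11, 28020620 to 28108308), which dampens the movement of chromosomes at the metaphase plate, stood at 52.3, 51.1 and 48.2 CPM after lactic acid and 69.2, 72.5 and 70.04 CPM in PBS (log2 fold change −0.48, SE 0.0395). KIF18B (chromosome 17, 44924709 to 44947711), which acts on astral microtubules, stood at 56.7, 55.7 and 55.8 CPM after lactic acid and 71.7, 74.4 and 78.5 CPM in PBS (log2 fold change −0.42, SE 0.0395). Neither motor's groups overlapped, and adjusted p was 3.37e-06 for KIF18A and 1e-05 for KIF18B.

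**Figure D2:**
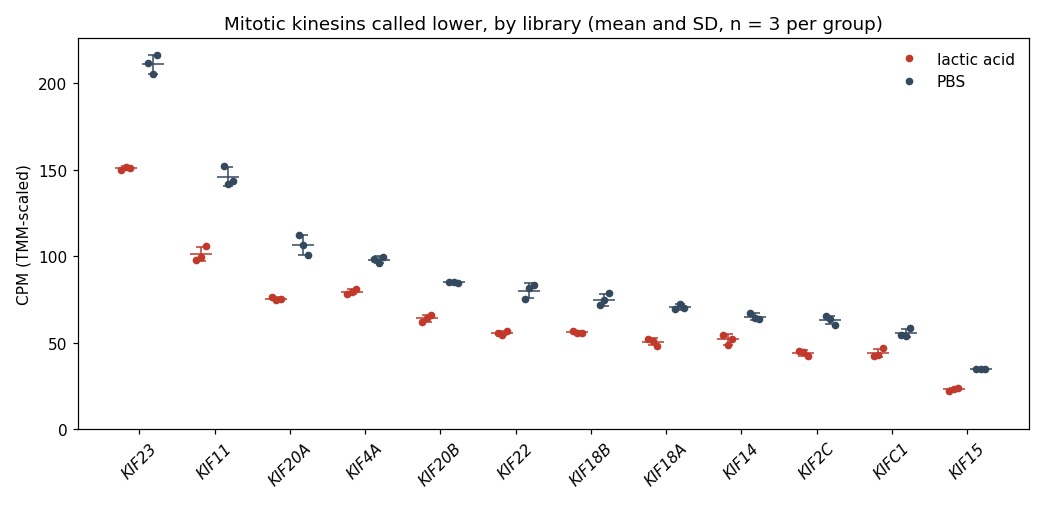
CPM of the 12 mitotic kinesins that fell, one point per library, with the mean and SD of 3 libraries per group. In each gene the 3 lactic acid libraries lie below the 3 PBS libraries, from KIF23 at 151 against 211 CPM to KIF15 at 22.9 against 34.9 CPM. The genes shown were picked because they were called lower. Of all tested genes, 23.1% had every lactic acid library below every PBS library.

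The cytokinesis motors included the most abundant mitotic kinesin. KIF23 (chromosome 15, 69414246 to 69448427), or MKLP1, forms centralspindlin with RACGAP1 and bundles the midzone where the cell will be cut. It stood at 150.05, 152 and 151 CPM in lactic acid libraries and 212, 205 and 216 CPM in PBS libraries, 28.4% lower (log2 fold change −0.48, SE 0.0344, adjusted p = 1.2e-06). The SD within lactic acid was 0.849 CPM and within PBS 5.49 CPM, and the groups did not overlap. KIF20A (chromosome 5, 138178719 to 138187715), or MKLP2, carries the chromosomal passenger complex to the midzone. It had 76.6, 74.7 and 74.97 CPM after lactic acid and 112, 107 and 101 CPM in PBS, 29.2% lower (log2 fold change −0.50, adjusted p = 4.64e-06). CDC23 and BRD8 overlap KIF20A on the other strand, with log2 fold changes of −0.17 (adjusted p = 0.00536) and −0.084 (0.0695), smaller than that of KIF20A.

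KIF20B (chromosome 10, 89701610 to 89774939), or MPP1, is needed to complete cytokinesis. It had 61.8, 64.5 and 65.9 CPM after lactic acid and 85.04, 84.9 and 84.7 CPM in PBS (log2 fold change −0.40, SE 0.036, adjusted p = 6.21e-06). KIF14 (chromosome 1, 200551497 to 200620734), which brings citron kinase to the midbody, had 54.7, 48.6 and 52.4 CPM after lactic acid and 67.4, 64.2 and 63.5 CPM in PBS, 20.2% lower (log2 fold change −0.33, adjusted p = 0.000217). The 3 kinesin-6 motors KIF20A, KIF20B and KIF23 thus fell by 24.5% to 29.2%.

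The other 2 mitotic genes were barely counted. KIF4B, an intronless copy of KIF4A nearly identical in sequence, had 9, 17 and 9 counts after lactic acid and 12, 6 and 27 in PBS, and its groups overlapped (log2 fold change −0.45, SE 0.51, adjusted p = 0.533). Reads of KIF4A can be placed on KIF4B, so its counts are uncertain. KIF2B, a relative of KIF2C known mainly from testis, had 0 counts in all 6 libraries, which allows up to 0.0705 to 0.0891 CPM per library when a count of 0 is read as at most 3, for counting error only. KIF2A, another kinesin-13 motor, works both at spindle poles and on interphase microtubules and was placed with the dual roles. Its level was 68.2, 61.2 and 48.5 CPM after lactic acid and 72.2, 66.6 and 69.2 CPM in PBS, so lactic acid library 3 was the lowest and lactic acid library 1 lay within the PBS range (log2 fold change −0.23, SE 0.0922, adjusted p = 0.0786). Without lactic acid library 1 the log2 fold change was −0.34 and it was called (adjusted p = 0.00964), as it was with the replicate number as a block (−0.24, adjusted p = 0.0264) and with no count filter (0.0393). IPO11 overlaps KIF2A on the same strand and DIMT1 on the other. Both fell, by 0.15 and 0.19 on the log2 scale (adjusted p = 0.0271 and 0.00704), and their part in the KIF2A value was not tested.

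CENPE, a kinesin that brings chromosomes to the plate and whose symbol lies outside the KIF names, had 46.9, 46.4 and 46.3 CPM after lactic acid and 68.2, 62.5 and 65.2 CPM in PBS (log2 fold change −0.49, SE 0.0394, adjusted p = 2.92e-06). STARD9, a centrosomal kinesin also outside the KIF names, was not called (log2 fold change −0.044, adjusted p = 0.722). The genes of proteins that work with mitotic kinesins fell too, all 15 of those listed and tested, against 16.7% of tested genes (median log2 fold change −0.42). That list was made with earlier results of these data known, so it is not independent of them. Among the chromosomal passenger proteins that KIF20A carries, the log2 fold change was −0.54 for AURKB, −0.43 for BIRC5, −0.35 for INCENP and −0.50 for CDCA8. RACGAP1, the partner of KIF23, stood at −0.35, and ECT2, which centralspindlin activates, at −0.20. PRC1, the bundler that binds KIF4A, stood at −0.22, and CIT, recruited by KIF14, at −0.42.

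TPX2, which loads AURKA on the spindle and binds KIF11, had a log2 fold change of −0.51 and AURKA itself −0.39. PLK1, the polo kinase, had −0.58, HMMR −0.60, NUSAP1 −0.45, the furrow scaffold ANLN −0.39 and the microtubule polymerase CKAP5 −0.22. Among all 15, adjusted p was largest for PRC1, at 0.00254. Of 10 general proliferation genes, also listed with earlier results known, 9 fell and 1 rose, against 16.7% and 18.7% of all tested genes. CCNB1 stood at −0.53, TOP2A at −0.50, MKI67 at −0.43 and CCNA2 at −0.40 on the log2 scale. LIN54, the MuvB subunit that reads the CHR, was the gene that rose (22.97, 23.7 and 23.2 CPM after lactic acid and 20.3, 20.6 and 20.7 CPM in PBS, log2 fold change 0.18, adjusted p = 0.0266). That call was lost when any PBS library, or lactic acid library 2 or 3, was left out (adjusted p of 0.0554 to 0.0991), with DESeq2 (0.0533) and on the FPKM scales. Chosen after their values were seen, the CHR activators MYBL2 and FOXM1 and the MuvB subunit LIN9 had log2 fold changes of −0.43, −0.26 and −0.30 (adjusted p = 2.21e-05, 0.00118 and 0.00436).

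**Figure D3:**
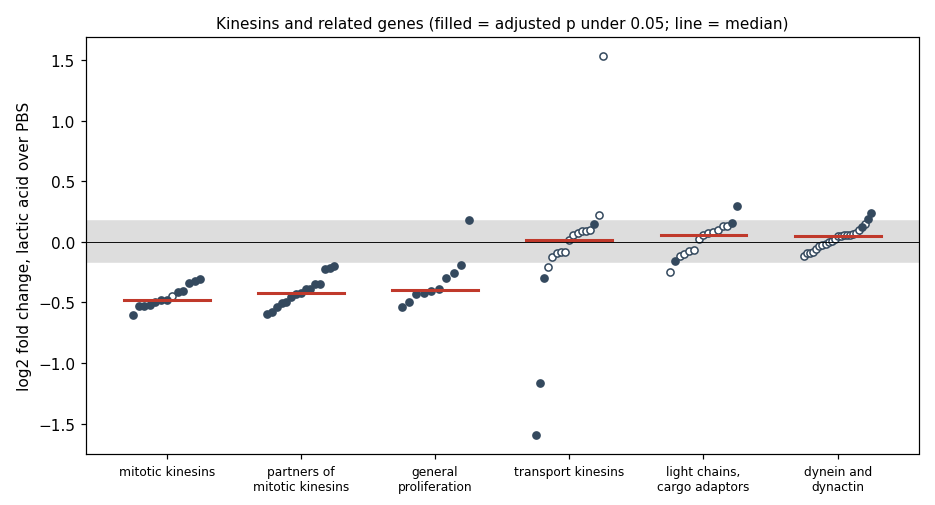
Log2 fold change of tested members in 6 gene groups (points), with the group median as a line, filled points for adjusted p under 0.05 and a grey band for the interquartile range of all tested genes. Medians were −0.48, −0.42 and −0.40 in the 3 groups of mitosis and proliferation genes on the left and between 0.017 and 0.058 in the transport groups on the right.

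Among transport motors the abundant ones changed little, with 1 exception. KIFC3 (chromosome 16, 57758217 to 57863053), a minus-end motor of apical transport and adherens junctions, had the highest level per length of any kinesin, at 56.6 ± 0.459 FPKM after lactic acid and 69.4 ± 2.33 FPKM in PBS (SD, n = 3 per group). In CPM it had 174, 184 and 176 after lactic acid and 214, 220 and 222 in PBS, 18.6% lower, and the groups did not overlap (log2 fold change −0.30, SE 0.0357, adjusted p = 6.53e-05). The size of its fall was close to that of KIF4A, and it was called lower in all 17 alternative fits that were run. KIF5B, the conventional kinesin heavy chain that nearly all cells use for vesicles and mitochondria, came next among transport motors in FPKM. It stood at 246, 257 and 264 CPM after lactic acid and 274, 260 and 277 CPM in PBS, with overlapping groups (log2 fold change −0.082, SE 0.0381, adjusted p = 0.119). Its FPKM groups did not overlap, at 38.7, 40.3 and 41.5 after lactic acid and 43.7, 42.1 and 45.1 in PBS.

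The neuronal heavy chains of the same kinesin-1 family were scarce. KIF5A (chromosome 12, 57549998 to 57586632) had 15, 29 and 29 counts after lactic acid and 59, 65 and 81 in PBS, which is 0.626 ± 0.183 and 1.90 ± 0.153 CPM. That was the largest called change of any kinesin on the log2 scale (−1.60, SE 0.266, adjusted p = 0.000692), in a transcript near the floor of the count filter. KIF5C had 92, 74 and 95 counts after lactic acid and 90, 85 and 108 in PBS and was not called (log2 fold change −0.21, SE 0.192, adjusted p = 0.437). Per length, the message of the family was nearly all KIF5B, at 40.2 FPKM after lactic acid and 43.6 FPKM in PBS, against at most 0.376 FPKM for KIF5C and 0.333 FPKM for KIF5A in any library.

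Kinesin-2 motors carry membrane cargo and the trains that build cilia. KIF3C (chromosome 2, 25926596 to 25982749), which pairs with KIF3A, was the only transport motor that rose, at 117, 113 and 115 CPM after lactic acid and 103, 105 and 103 CPM in PBS, 1.11-fold (log2 fold change 0.15, SE 0.0345, adjusted p = 0.00564). On the log2(FPKM + 1) scale the difference was 0.04 and not called (adjusted p = 0.546). KIF3A and KIF3B, the pair of the heterotrimeric motor, were not called. KIF3A had 42.3, 39.6 and 39.8 CPM after lactic acid and 42.9, 38.02 and 39.4 CPM in PBS (log2 fold change 0.017, SE 0.0514, but below 0 with library totals alone and on the FPKM scales). KIF3B had 105, 105 and 111 CPM after lactic acid and 106, 99.6 and 95.2 CPM in PBS (log2 fold change 0.094, SE 0.0464, adjusted p = 0.142), and it was called higher only in the fit without PBS library 1. KIF17, the homodimeric member of dendrites and cilia, had 13, 21 and 7 counts after lactic acid and 30, 17 and 39 in PBS. It was called (log2 fold change −1.17, SE 0.415, adjusted p = 0.0471), but not with DESeq2 (0.0536), with the replicate number as a block (0.0798) or without library 1 or 3 of either group (0.101 to 0.163).

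None of the kinesin-3 transport motors passed the test, where 35.4% of all tested genes were called in either direction. At an unadjusted p under 0.05 (edgeR), KIF13A, KIF13B and KIF1A were higher (0.0213, 0.0196 and 0.037) and KIF1B was lower (0.0398). KIF16B and KIF1C were not under that limit. KIF13B (chromosome 8, 29067279 to 29263124), which carries DLG1, had 19.7, 18.9 and 19.7 CPM after lactic acid and 16.7, 18.3 and 14.9 CPM in PBS. Its groups did not overlap (log2 fold change 0.22, SE 0.0814, adjusted p = 0.0542), and it was called without PBS library 2 (0.0186) and with limma-voom (0.0367). KIF13A, which moves endosomes, had 55.998, 54.1 and 56.6 CPM after lactic acid and 51.8, 52.8 and 51.5 CPM in PBS (log2 fold change 0.095, SE 0.0356, adjusted p = 0.0579). KIF16B, another motor of early endosomes, had log2 fold change 0.058 (adjusted p = 0.32).

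KIF1B, which moves mitochondria and synaptic vesicle precursors, and KIF1C, of dense-core vesicles and integrins, had −0.093 and −0.082 (0.0939 and 0.275). Both were called lower in 1 fit with a library left out, KIF1B without PBS library 1 (log2 fold change −0.13, adjusted p = 0.014) and KIF1C without lactic acid library 3 (−0.15, 0.037). KIF1A, the axonal relative, had 13, 24 and 14 counts after lactic acid and 0, 8 and 8 in PBS and was not called (log2 fold change 1.54, SE 0.651, adjusted p = 0.089), though it was called with limma-voom (2.22, adjusted p = 0.0472). The remaining transport motors, KIF21A, KIF21B and KIFC2, had log2 fold changes of 0.088, −0.13 and 0.073 with overlapping groups. Over the 17 transport motors, groups did not overlap in 3 genes that were lower and 4 that were higher, against 23.1% and 24.4% of all tested genes.

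Summed over genes on the FPKM scale, which is per length, the difference between the roles was plain. The 13 tested mitotic motors added up to 202, 200 and 204 FPKM in the lactic acid libraries and 282, 283 and 288 FPKM in the PBS libraries, 29.1% lower. The 17 transport motors added up to 210, 209 and 218 FPKM after lactic acid and 228, 229 and 231 FPKM in PBS, 7.59% lower. KIFC3 made up most of that, since without it the sums were 154, 152 and 161 FPKM after lactic acid and 161, 159 and 160 FPKM in PBS, and overlapped. In CPM the 17 transport motors added up to 1160, 1167 and 1207 after lactic acid and 1215, 1219 and 1221 in PBS, a smaller relative difference. The FPKM scale itself ran lower after lactic acid. The median log2 fold change of all tested genes was −0.026 on log2(FPKM + 1) with a filter, against 0.0024 in the edgeR test. The ratio of mitotic to transport message per library was 0.962, 0.957 and 0.933 after lactic acid and 1.237, 1.234 and 1.247 in PBS. The ratio was lower in each lactic acid library than in each PBS library. On the CPM scale, which is not per length, it was 0.684, 0.678 and 0.667 after lactic acid and 0.904, 0.886 and 0.896 in PBS, so mitotic message was below transport message in all 6 libraries there, while on the FPKM scale it was above transport message in the PBS libraries.

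**Figure D4:**
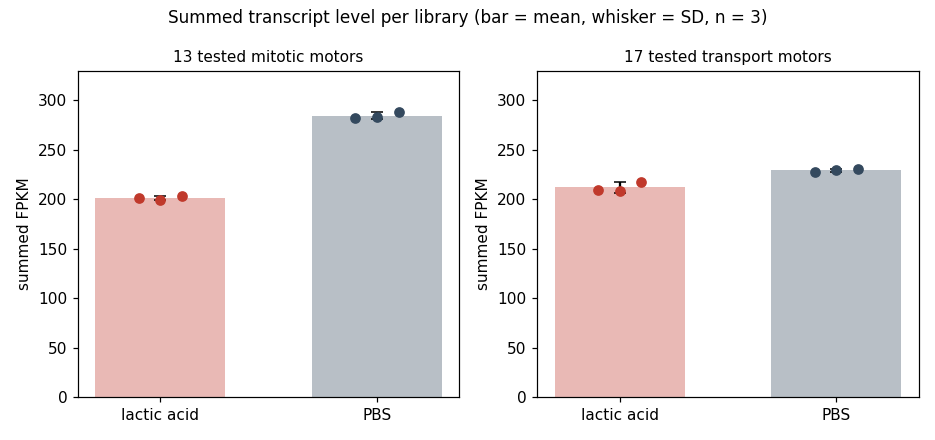
Summed FPKM of the 13 tested mitotic motors (left) and 17 transport motors (right), with points for libraries, bars for means and whiskers for SD (n = 3 per group). Mitotic sums were 202 ± 1.95 after lactic acid and 284 ± 3.46 FPKM in PBS, and transport sums were 212 ± 5.23 after lactic acid and 230 ± 1.64 FPKM in PBS.

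Cilium and centriole kinesins reached at most 20.5 CPM in any library. KIF24 (chromosome 9, 34252381 to 34311371), which caps centriolar microtubules and limits cilium formation, had 13.99, 14.1 and 16.2 CPM after lactic acid and 17.5, 17.8 and 18.7 CPM in PBS (log2 fold change −0.29, SE 0.0798, adjusted p = 0.016). The call was lost without PBS library 3 (0.0626) and without lactic acid library 2 (0.0668). UBAP1, on the other strand over KIF24, rose (log2 fold change 0.27, adjusted p = 6.6e-05). KIF7, a Hedgehog regulator at the cilium tip, had 16.8, 18.6 and 17.98 CPM after lactic acid and 20.5, 18.7 and 19.7 CPM in PBS. Its groups did not overlap, but it was not called (log2 fold change −0.14, SE 0.0702, adjusted p = 0.154). TICRR overlaps KIF7 on the other strand and fell (log2 fold change −0.29, adjusted p = 0.000521). KIF27, its relative in motile cilia, had a log2 fold change of 0.069 (SE 0.127), and KIF9, of motile cilia, 0.12 (SE 0.159). KIF6 and KIF19, of motile cilia, had at most 8 counts in any library and were not tested.

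In the group of dual and other roles edgeR called 0 of 5 tested genes, against 35.4% of all tested genes in either direction, with 2 of them (KIF12 and KIF2A) at an unadjusted p under 0.05, and DESeq2 and limma-voom also called 0. KIF26A, a signalling kinesin that does not walk, had 5.25, 7.03 and 5.82 CPM after lactic acid and 6.16, 6.83 and 7.84 CPM in PBS (log2 fold change −0.20, SE 0.137, adjusted p = 0.282). KIF12, an epithelial kinesin, had 33, 60 and 38 counts after lactic acid and 53, 51 and 88 in PBS (log2 fold change −0.66, SE 0.255, adjusted p = 0.0658). It was called lower with the 50-count filter (adjusted p = 0.0469) and without lactic acid library 2 (log2 fold change −0.87, adjusted p = 0.0449). Its CPM groups did not overlap while its FPKM groups did. KIF25 and KIF26B reached at most 0.564 and 0.594 CPM in any library. KIF1BP, which holds several kinesins away from microtubules, had 62.4, 63.2 and 59.9 CPM after lactic acid and 63.4, 68.3 and 63.9 CPM in PBS (log2 fold change −0.076, adjusted p = 0.173).

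Of 16 listed light chains and cargo adaptors, 15 were tested, 2 rose and 1 fell (median log2 fold change 0.058), shares of 13.3% and 6.67%, against 18.7% and 16.7% of all tested genes. KLC1, a light chain of conventional kinesin, fell, at 118, 117 and 120 CPM after lactic acid and 130.5, 131 and 134 CPM in PBS (log2 fold change −0.16, SE 0.0346, adjusted p = 0.00427). TRAK1, the adaptor that links kinesin to mitochondria, had 52.3, 50.9 and 53.9 CPM after lactic acid and 47.9, 48.5 and 49.8 CPM in PBS, and its groups did not overlap, but it was not called (log2 fold change 0.10, SE 0.0379, adjusted p = 0.0547). The scaffolds MAPK8IP1 and MAPK8IP3 rose by 0.30 and 0.16 on the log2 scale (adjusted p = 0.0346 and 0.0426). The call of MAPK8IP1 was lost when any library but PBS library 2 was left out (0.0577 to 0.142), and that of MAPK8IP3 without PBS library 1 or 2 or lactic acid library 2 or 3 (0.0862 to 0.185). Neither was called when PBS library 1 or lactic acid library 2 or 3 was left out.

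A further list held genes of cytoplasmic dynein, the motor that walks the other way, and of its activator dynactin. It also held the regulators and adaptors PAFAH1B1, NDE1, NDEL1, BICD1 and BICD2. Of its 25 genes 23 were tested, and 3 rose (13.04%) and 0 fell at adjusted p under 0.05 (edgeR), against 18.7% and 16.7% of all tested genes. At an unadjusted p under 0.05, 2 were lower, NDE1 and BICD2 (0.0427 and 0.0448), while DESeq2 and limma-voom called 0 lower. The list had a median log2 fold change of 0.05. The heavy chain DYNC1H1, chosen after its value was seen, had a log2 fold change of 0.021 (SE 0.033). The genes that rose were the light chain DYNLRB1 and the dynactin subunits DCTN6 and DCTN2, with log2 fold changes of 0.24, 0.19 and 0.12 (adjusted p = 0.0113, 0.0153 and 0.0341). DCTN4, another dynactin subunit, had 0.10 (adjusted p = 0.0709). The count of rises was 0 without PBS library 3 and 1 without lactic acid library 1 or without lactic acid library 3.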

How the data were processed

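The authors deposited whole-number counts and FPKM per gene for 6 libraries of poly(A) RNA. HISAT2, StringTie, DESeq2 and GRCh38 come from the submitters' processing notes, which give neither roles nor versions. Annotation, strand setting and the treatment of multi-mapped reads: not given in the sources used here. Control columns are headed NS in the tables and WT in the labels, and were assigned by the library names. Counts were tested with edgeR 4.0.16 in R 4.3.3 (TMM, filterByExpr with minimum count 10 and minimum total 15, quasi-likelihood F test, two-sided, group as the only term), adjusted by Benjamini-Hochberg over 15474 genes. A call is an adjusted p under 0.05. SE is the size of the log2 fold change divided by the square root of F. The fit was tested on simulated data with the same dispersion for all genes. It called 52% of 1.25-fold changes and 100% of 1.5-fold, 2-fold and 3-fold changes, with 5.88% false among calls. Changes below 1.25-fold were not simulated. Alternatives used DESeq2 1.42.0, limma 3.58.1 (voom, and trend on log2 FPKM with pseudocounts of 1 and 0.1), other scalings and filters, a replicate block and each library left out. FPKM were summed per role. Positions are from GENCODE on GRCh38. Members, roles and lists were chosen with earlier results of these data known. The rule for named genes took every tested mitotic motor, other kinesins called or at 5 CPM or more and, per partner list, up to 4 genes with the smallest p plus any called against the list's majority; other kinesins were named to account for each, and the rest of the 15 mitotic partners after their values were seen. Protein sequences were not used here. One gene of the cargo adaptor list is not reported here, and the counts for that list are without it. Limits from counting cover counting error only.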

Additional observations from a re-analysis of the deposited data

How the results depend on the processing

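The 12 mitotic kinesins remained lower in each of 17 alternative fits (largest adjusted p 0.00793), as did all 15 partners; counting KIF2A as mitotic also left 12 called. Smaller calls depended on the setting, and so did the shares over all tested genes. The share called higher was 18.9% with limma-voom, 14.8% in the FPKM fits with a filter and 7.88% on log2(FPKM + 1) without a filter. It was 15.1% to 16.3% with 1 library left out. The share called lower was 16.9%, 20.9% and 10.6% in those fits and 13.6% to 15.2% with 1 library left out. In the other fits 13.4% to 21.2% were higher and 12.8% to 20.2% lower. Transport kinesins called higher numbered 3 with limma-voom, 0 in each of the 3 FPKM fits and 1 to 2 with 1 library left out; those called lower numbered 1 on log2(FPKM + 1) and log2(FPKM + 0.1) with a filter (fewer genes were tested there) and 2 to 3 with 1 library left out. Cilium kinesins called lower numbered 0 on log2(FPKM + 1) without a filter and 0 to 1 with 1 library left out. Among dual or other kinesins 1 was lower with a 50-count filter (KIF12), with no filter and with the replicate block (KIF2A in both), and 0 to 1 with 1 library left out. Among cargo adaptors, 2 were lower with DESeq2, a 50-count filter, library totals alone, limma-voom, the 3 FPKM fits and the replicate block, and 1 to 2 with 1 library left out; 1 was higher with library totals alone, 0 in the FPKM fits and 0 to 2 with 1 library left out. Genes of the dynein and dynactin list called higher numbered 1 on log2(FPKM + 1) without a filter and 0 to 4 with 1 library left out, and those called lower 0 to 1. Proliferation genes called higher numbered 0 with DESeq2 and in the FPKM fits, and 0 to 1 with 1 library left out. The cause was not tested. Signs turned in genes that were not called. KIF3A had log2 fold changes of −0.0045 with library totals alone, −0.065 on log2(FPKM + 0.1), −0.057 on log2(FPKM + 1) with or without a filter and −0.025 to 0.063 with 1 library left out. KIF27 had −0.00092 on log2(FPKM + 1) and −0.036 to 0.16 with 1 library left out. With 1 library left out, KIF4B ranged from −0.80 to 0.17, KIFC2 from −0.014 to 0.14, KIF25 from −1.02 to 0.13 and STARD9 from −0.092 to 0.00901. Libraries that share a replicate number did not deviate together (correlations 0.0218, −0.0239 and 0.031). Such correlations cannot tell whether they shared a culture or a day. With the replicate block 2596 of all genes fell and 2886 rose, against 2584 and 2892 without it. Depth limits KIF5A, KIF17, KIF1A, KIF4B, KIF12, KIF25 and KIF26B, which rest on few counts.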
